A study of Mus musculus with 4 samples.

Results

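The locus described here is a 40 kb stretch of mouse chromosome 1 (mm9, chr1:133920001-133960000) where the 3′ end of Elk4 faces the 3′ end of Mfsd4a. Its members are all sequences of the deposited list whose 5′ end lies in that stretch. There were 6054 of them, out of 4906138 sequences in the whole list. The stretch was chosen by its number of listed sequences, since its first 20 kb window was among the fullest of the genome, so the number of its members is a description and supports nothing. That window held 5940 members and the second one 114, whereas 529 sequences lay in the 20 kb before the stretch and 32 in the 20 kb after it.

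The RNAs were bound to MILI (Piwil2), a PIWI protein of male germ cells, and were immunoprecipitated from C57BL/6 testes at 14 days post partum. Of the 4 libraries, 2 came from Tdrd9+/- mice and 2 from Tdrd9-/- mice. TDRD9 is a germline helicase with a tudor domain, and the study asked how MILI-bound RNAs differ without it. The list pools the libraries and gives neither read counts nor the library of a sequence. Depth per library is unknown, there is no replicate error, and the genotypes were not compared. Shares below are shares of distinct sequences. Brackets hold 95% intervals (Clopper-Pearson, exact) for counting error only, over sequences that share 1 source. Among sense sequences of marker genes in the whole list, 6 of 6 genes of spermatogonia and early meiosis had 10 or more, with Ddx4 the lowest at 149, against 57.0% of all 21877 protein-coding genes. Of 5 later germ cell genes, 4 had 0 and Tnp1, a transition protein gene of spermatids, had 23. Of 4 Leydig cell genes Star had 247, Cyp11a1 had 1 and the other two had 0. Of 4 Sertoli cell genes, Sox9 had 27 sequences, Gata4 21, and Amh and Wt1 7 each.

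PIWI proteins bind piRNAs, small RNAs that guide the silencing of transposons in the germline. Primary piRNAs are cut from long single-stranded precursors and mostly begin with U. Before meiosis many precursors are messenger RNAs, often through their 3′ UTRs. When a PIWI protein slices an opposite-strand RNA, the new 5′ end overlaps the guide by 10 nt, so that a guide with a 5′ U leaves a partner with A at position 10. Elk4 (SAP-1) encodes an ETS-domain ternary complex factor, which binds DNA together with SRF and is activated by MAP kinases. Mfsd4a encodes a membrane protein of the major facilitator superfamily of transporters. The 2 genes lie on opposite strands, Elk4 on plus and Mfsd4a on minus, and their annotated 3′ ends overlap. The Elk4 transcript with the longest coding sequence is called its coding transcript here, and one annotated as a target of nonsense-mediated decay, which ends further right, its NMD transcript.

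Ends with many distinct sequences serve as examples of members, though they began with U more often than other ends, as given below. A single 5′ end held 10 sequences and 7 ends held 9. The first and the 4 of those 7 with the lowest positions are shown. All of them, and the other 3 ends with 9, lay on the plus strand. The longest sequence at each is printed with T for U, as listed, with the first base and an A at position 10 in capitals.
End 1: TgagagtggAtctgtagtttaggctggcct
End 2: Tggaatgaatttgtggaagcacgtgcttgg
End 3: Taggacaagcagtgttgggcatcagtagc
End 4: Tgataagaggcaaaagaggctggcatacc
End 5: Tctgtggaacttgccgctatcagaatcatg
End 1 (chr1:133923915-133923944) held 10 sequences of 19 to 30 nt and is antisense to the 3′ exon of Mfsd4a. End 2 (chr1:133922406-133922435) and end 3 (chr1:133922658-133922686) held 9 each and are sense to the 3′ UTR of Elk4. End 4 (chr1:133923653-133923681) and end 5 (chr1:133925088-133925117) also held 9 each, and both are antisense to Mfsd4a exons. All 5 begin with U, as do the 3 tied ends that are not shown, and 1 of the 5 has A at position 10. The sequences at 1 end differ only in where they stop.

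The plus strand held nearly all members. Of the 6054, 5808 lay on plus (95.9%, 95.4–96.4%) and 246 on minus. Exact matches to GENCODE M21 transcripts placed 2207 plus-strand members in sense to Elk4 exons (38.0% of the strand) and 1856 antisense to Mfsd4a exons (32.0%), with 31 in both. A further 1776 plus-strand members (30.6%) matched no exon of either gene. On the minus strand, 141 members were sense to Mfsd4a and 86 were antisense to Elk4. The only other gene with 10 or more members was Gm26892, an annotated lincRNA on plus strand, with 58 antisense and 8 sense. On the plus strand 69.4% of members (68.2–70.6%) were sense to Elk4 or antisense to Mfsd4a. This share was not set against the length of the annotated exons, so it shows no preference of the members for them.

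**Figure D1:**
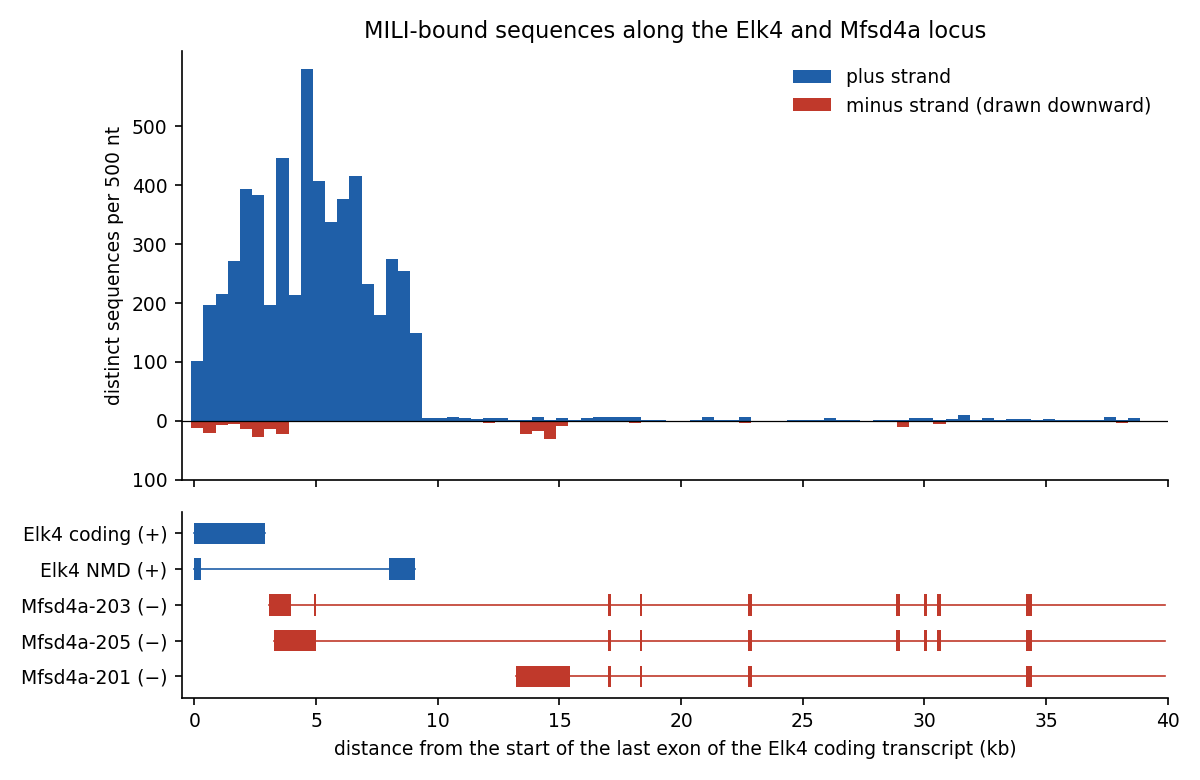
Distinct MILI-bound sequences per 500 nt (upper panel, plus strand up, minus strand down) against the distance in kb from the start of the last exon of the coding transcript of Elk4, with the annotated exons that hold a listed sequence (lower panel, boxes). The plus-strand sequences fill the stretch from that exon to the end of the NMD transcript of Elk4, and the minus-strand sequences lie in its first 4 kb and over the last exon of Mfsd4a-201.

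The plus-strand members began at an exon and stopped at the end of a transcript. The last exon of the coding transcript of Elk4 lies at chr1:133920130-133923025, as placed by exact matches. The first plus-strand 5′ end of the locus was its first base, 133920130. No plus-strand member crossed the border from the intron into this exon. There were 0 plus-strand sequences in the 100 nt before the border and 57 in the 100 nt after it. The 4086 nt intron before the exon held 7 plus-strand sequences, the 2 introns before that held 0, and the last exon held 1563. The first intron of the coding transcript of Elk4 differed from these, with 196 sequences in 6442 nt. Exons of other Elk4 transcripts are annotated inside it, at chr1:133904874-133905500 and chr1:133909603-133909811, and matched 49 and 38 sense sequences. Most of the 196 did not lie within these exons.

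At its other side the run stopped at a second annotated end of Elk4. The NMD transcript joins the first 286 nt of the same exon to a distal last exon at chr1:133928141-133929189. The last plus-strand sequence of the run ended 22 nt before the end of the NMD transcript of Elk4, and the next 5′ end lay 129 nt after it. In the 1 kb before that end there were 570 plus-strand sequences, and in the 1 kb after it 9. From the start of the last exon of the coding transcript of Elk4 to the end of the NMD transcript of Elk4, a stretch of 9060 nt, lay 5640 of the 5808 plus-strand members (97.1%, 96.6–97.5%).

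From the end of the coding transcript of Elk4 to the start of the distal exon the members did not thin out. No Elk4 exon is annotated in this part, which is called the interval between the ends here. This interval of 5115 nt held 3433 members at 1478 distinct 5′ ends, which is 289 ends per kb. The last exon of the coding transcript of Elk4 had 248 ends per kb and the distal exon 256.4. The earlier coding exons had fewer: 130 ends per kb in exon 2, 128 in exon 3 and 34.2 in exon 4, with 23.95 in the first exon, which is noncoding. In the last exon the 99 nt of coding sequence had 273 ends per kb and the 3′ UTR 247, so the dense part included the end of the coding sequence. The sequences per kb of 3 dense parts were 540, 671 and 614, in the order of the strand.

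Both annotated borders were also crossed by members as unbroken genome sequence. A single sequence crossed the end of the coding transcript of Elk4, and 17 sequences crossed the start of the distal exon, of which 11 had 5 nt or more on each side. The latter hold bases that are intronic in the NMD transcript of Elk4. One of each kind is shown, the most evenly placed over its border, with the bases beyond the coding transcript of Elk4 in capitals in the first and the bases before the distal exon in capitals in the second.
Across the end of the coding transcript of Elk4: taaaatgtcaagtttaacttaaGTAACCT
Across the start of the distal exon: TACATGTGTGCTAGgaggttgagtca
The first lies at chr1:133923004-133923032 and the second at chr1:133928127-133928152, both on plus. In the 100 nt before the end of the coding transcript of Elk4 there were 32 plus-strand sequences and in the 100 nt after it 104. The list holds matches to the genome only, so sequences across spliced junctions could not be seen.

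Coverage of the 9060 nt was nearly complete. Plus-strand members covered 93.4% of its bases, the median base was covered by 13 different sequences and the fullest by 112. The stretch had 27.2 distinct 5′ ends per 100 positions, and the median distance from one end to the next was 1 nt. It had 25 uncovered gaps, the longest being 168 nt at chr1:133923159-133923326 and 101 nt at chr1:133927411-133927511, both in the interval between the ends. The 3 fullest 1 kb bins on plus were those starting at 133924001, 133926001 and 133922001, with 810, 792 and 778 sequences. Whether repeated sequence lies in the gaps was not tested. In 11 members the first 20 nt occurred at another listed position. This number was not set against the share in the whole list, so it shows nothing particular to the locus.

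Over part of the interval between the ends, the plus-strand members were complementary to 3′ exons of Mfsd4a. Of the 3433 members there, 1802 (52.5%, 50.8–54.2%) were antisense to annotated Mfsd4a exons. The interval is chr1:133923026-133928140, and the Mfsd4a exons placed in it lie in chr1:133923198-133925610. The share was not set against the part of the interval that these exons cover, so it shows no excess over them. The last exon of Mfsd4a-205 (chr1:133923385-133925124, minus strand) contained 1405 plus-strand members at 563 ends against 24 minus-strand members. The last exon of Mfsd4a-203 (chr1:133923198-133924117), which overlaps it, contained 578 against 31. Part of this was coding sequence. Exon 10 of Mfsd4a-203 ends its open reading frame in 62 coding nt at chr1:133925063-133925124, and 47 plus-strand members lay wholly inside them, end 5 above among them.

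In the longest 3′ exon of Mfsd4a outside the run, minus-strand members were the more frequent. The last exon of Mfsd4a-201 (chr1:133933361-133935550) contained 81 minus-strand, sense members and 13 plus-strand members. The coding exons of Mfsd4a further right held few of either strand, with the most, 10 minus-strand members, in 174 nt at chr1:133948957-133949130. The last exon of Mfsd4a-204 (chr1:133919383-133920213) lies mostly left of the run and reaches into its start, and it contained 31 plus-strand and 3 minus-strand members.

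The first base of the members was mostly U, also when the base content of the locus was taken into account. A 5′ U was carried by 66.7% of members (65.4–67.8%), against 75.4% in the whole list. Covered plus-strand bases were 27.9% U, whereas 56.5% of the distinct plus-strand ends were U, a ratio of 2.03. Of the covered U positions 45.3% (43.6–47.0%) were a 5′ end, against 14.4% of A, 16.3% of C and 10.2% of G. The order of the bases, U, then C and A close together, then G, was the same in the last exon of the coding transcript of Elk4 and between the ends. In the latter, 56.2% of all covered U (53.6–58.7%) were used as a 5′ end, and A and C were used at 21.8% and 23.1%.

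**Figure D2:**
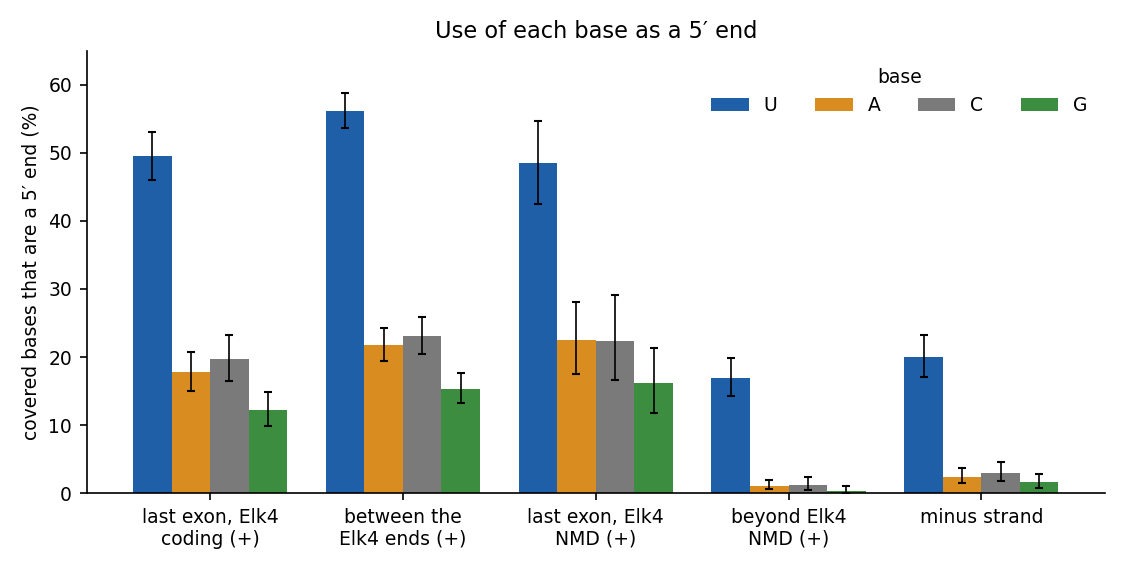
Share of covered bases that are a distinct 5′ end, in percent, for each base in 4 plus-strand parts and on the minus strand; bars are shares and lines are exact 95% intervals. U is the base used most in each, from 56.2% between the Elk4 ends to 16.9% beyond the NMD transcript of Elk4, where G is used at 0.346%. These shares also depend on how densely ends lie in a part, so they do not rank the parts by preference for U. The ratio of U among ends to U among covered bases was 1.79 between the Elk4 ends and 3.79 beyond the NMD transcript.

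Ends with more sequences began with U more often. Of the 1315 ends with a single sequence 45.2% were U (42.5–47.9%), of the 986 ends with 2 or 3 it was 62.7% (59.6–65.7%), and of the 491 ends with 4 or more it was 80.4% (76.7–83.9%). A at position 10 did not move with it, at 28.7%, 27.4% and 27.9%. Sparse parts had a higher share of U as well. Beyond the end of the NMD transcript of Elk4 the plus strand had 168 members at 4.64 ends per kb, and 86.9% of them (80.8–91.6%) began with U, against 66.9% (65.3–68.5%) at 289 ends per kb between the ends. The part of density in this difference was not tested.

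Position 10 of the plus-strand members had no excess of A. A stood there in 26.9% (25.8–28.1%), against 27.4% on average at positions 11 to 20 and 26.5% of the covered bases. The parts differed: it was 31.1% (28.8–33.5%) in the last exon of the coding transcript of Elk4, 24.5% (23.0–25.9%) between the ends and 29.8% (26.3–33.5%) in the distal exon, with 26.9%, 27.1% and 28.9% at positions 11 to 20. U directly after the 3′ end, as left where one precursor cut makes the next 5′ end, was found in 31.03% of plus-strand members (29.8–32.3%), against 28.9% to 29.6% at the 9 positions that follow. Counted over both strands, a 5′ end at the base after a 3′ end was found 949 times in the locus. The mean at distances of 2 to 20 nt was also 949. The run had 27.2 distinct 5′ ends per 100 positions, so every distance is often met. Without read counts, these counts of distinct ends cannot decide whether 3′ ends and next 5′ ends adjoin.

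**Figure D3:**
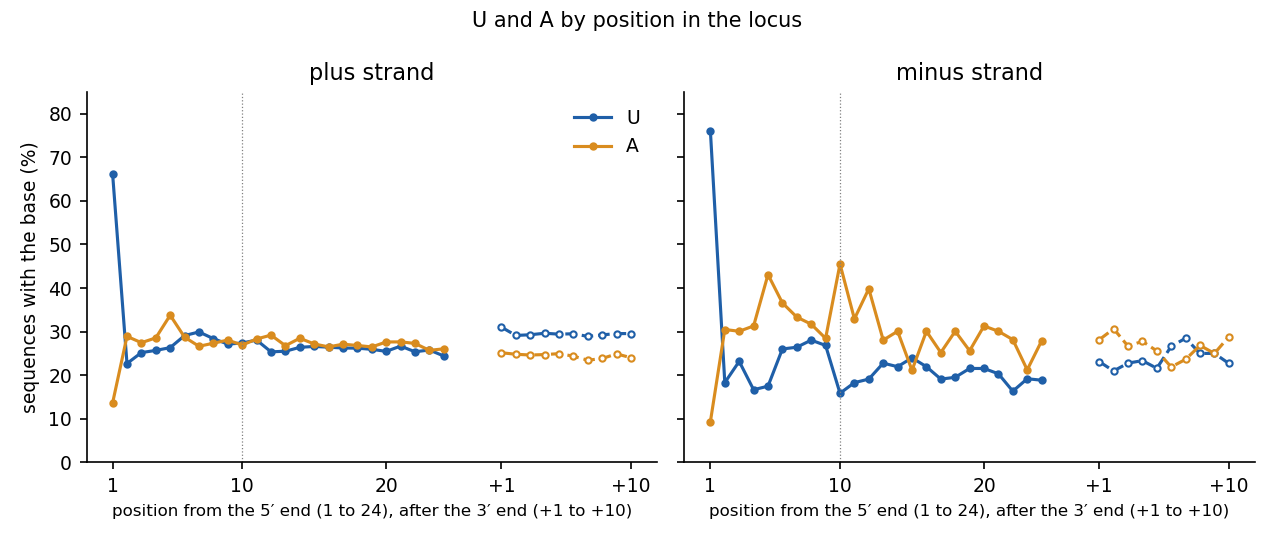
Share of sequences with U and with A, in percent, at positions 1 to 24 from the 5′ end and at the 10 positions after the 3′ end, for plus-strand members (left) and minus-strand members (right). U stands out at position 1 on both strands, and A at position 10 on the minus strand, at 45.5%.

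The minus-strand members fell into 2 sets with different base profiles. Over the plus-strand run lay 127 of them and to its right 119. Of those over the run 59.8% (50.8–68.4%) had A at position 10, against 31.7% on average at positions 11 to 20, and 64.6% (55.6–72.8%) began with U. Of those to the right 30.3% (22.2–39.3%) had A at position 10 and 88.2% (81.0–93.4%) began with U. The 86 members antisense to Elk4 had A at position 10 in 54.7% (43.5–65.4%). The 81 in the last exon of Mfsd4a-201 had it in 27.2% (17.9–38.2%) and a 5′ U in 87.7%. The intervals of the 2 sets do not overlap for either base. They were compared after their values were seen, and sequences at the same end are counted separately.

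Opposite-strand ends overlapping by 10 nt were the most frequent overlap in the locus. There were 47 such pairs, whereas overlaps of 1 to 9 and 11 to 20 nt had 25 to 36 pairs each, with a mean of 28.9. The ratio was 1.63 (1.20–2.16, exact Poisson interval of the 47), against 1.37 in the whole list. The pairs took up 47 of the 183 minus-strand ends (25.7%) and 1.80% of the plus-strand ends. All 47 lay over the run, 45 of them with minus-strand ends between 133920128 and 133923868, a group of 123 minus-strand members of which 85 were antisense to Elk4 and 34 sense to Mfsd4a.

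**Figure D4:**
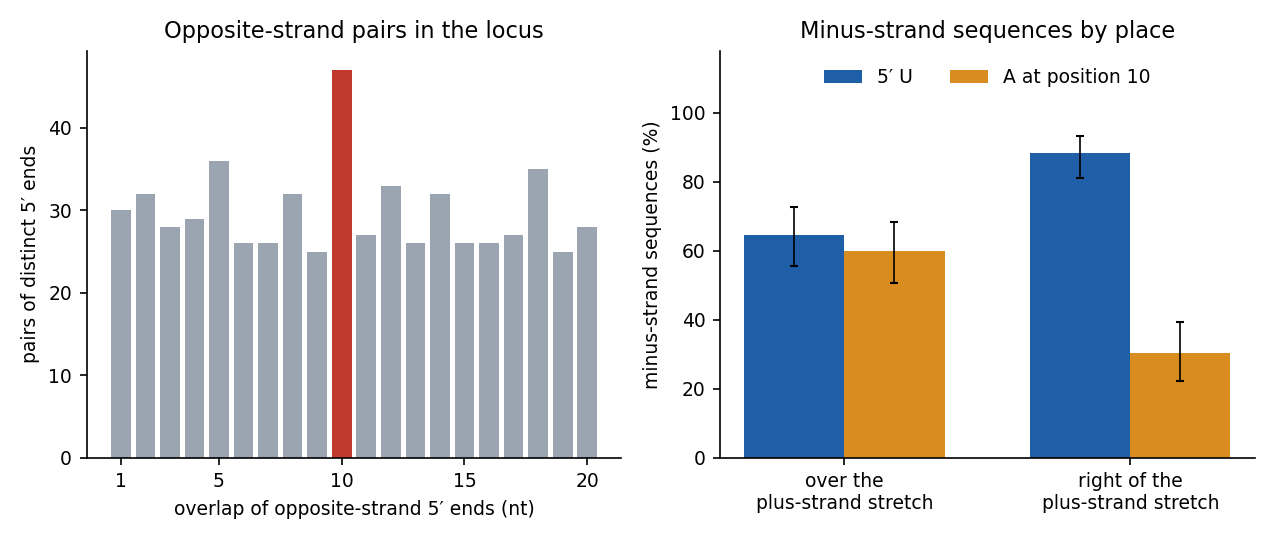
Left: pairs of opposite-strand 5′ ends in the locus by their overlap in nt, with 47 pairs at 10 nt and 25 to 36 at the others. Right: share of minus-strand members with a 5′ U and with A at position 10, in percent, over the plus-strand run and to its right; lines are exact 95% intervals.

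The 3 pairs with the most sequences show this overlap, with the first 10 bases of each sequence, complementary between the partners, in capitals.
Pair 1 plus: TAAGTTCGAGactagcttagactacaagag
Pair 1 minus: CTCGAACTTActatgtagctgaggctag
Pair 2 plus: TAGTTCTAATtctgctccggaccatctc
Pair 2 minus: ATTAGAACTAcaatgcctcagaaggggtct
Pair 3 plus: TGTAGTTCTAattctgctccggaccatctc
Pair 3 minus: TAGAACTACAatgcctcagaaggggtctca
The plus-strand partners lie at chr1:133922295-133922324, chr1:133922741-133922768 and chr1:133922739-133922768, all in the 3′ UTR of Elk4, and the last pair is shifted from the second by 2 nt. The plus-strand ends held 6, 5 and 6 sequences and the minus-strand ends 3, 4 and 2. In each of the 3 pairs the plus-strand partner begins with U and the minus-strand partner has A at position 10.

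Over all 47 pairs the plus-strand end was U in 36 (76.6%, 62.0–87.7%), and by complementarity the same 36 minus-strand ends had A at position 10. Plus-strand ends of the run with no such partner were U in 54.4% (52.4–56.4%). The minus-strand end was U in 25 of the pairs, and both ends were U in 16. Minus-strand ends over the run with no partner had A at position 10 in 21 of 50 (42.0%, 28.2–56.8%), and those to the right of the run in 29 of 86 (33.7%, 23.9–44.7%).

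Members were close in length to the rest of the list but spread more widely. Their mean was 27.1 nt (SD 1.61 nt over sequences) and the mode 27 nt, against an SD of 1.31 nt in the whole list. In the 2 clusters set beside the locus below, the SD was 1.47 nt for D10Wsu102e and 1.31 nt for that antisense to Kcnk10. Whether the spread depends on the number of sequences per end was not tested. Lengths of 26 to 28 nt made up 68.8% of members (67.7–70.0%), against 77.0% of the list. The 28 to 30 nt class that was cut from the gel made up 38.5% (37.3–39.8%), against 37.1%. By length, the share with a 5′ U was lowest at 26 nt, 61.9%, and higher at both sides, with 78.9% at 24 nt and 74.4% at 30 nt. Plus-strand members averaged 27.04 nt and minus-strand members 27.4 nt.

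The locus was set against the 510 clusters of the genome made of 20 kb windows with 1000 or more sequences. Its first window forms such a cluster alone, and it held 2.20 sequences per 5′ end, above 502 of the clusters, whose median was 1.79. Its share of A at position 10, 27.6%, was above 65 clusters, and its 5′ U share, 66.2%, above 124 (medians 30.5% and 69.6%). The main strand held 96.3% of its sequences, against a median of 98.4%. Among the 209 clusters with a mean of 1 pair or more at other overlaps, its 10 nt ratio was above 142. These ranks describe 1 list and are not tests, and the number of sequences per end also depends on how deeply a locus is sampled. The locus was chosen by its number of sequences, which enters the sequences per end, so its high rank in that measure supports nothing.

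**Figure D5:**
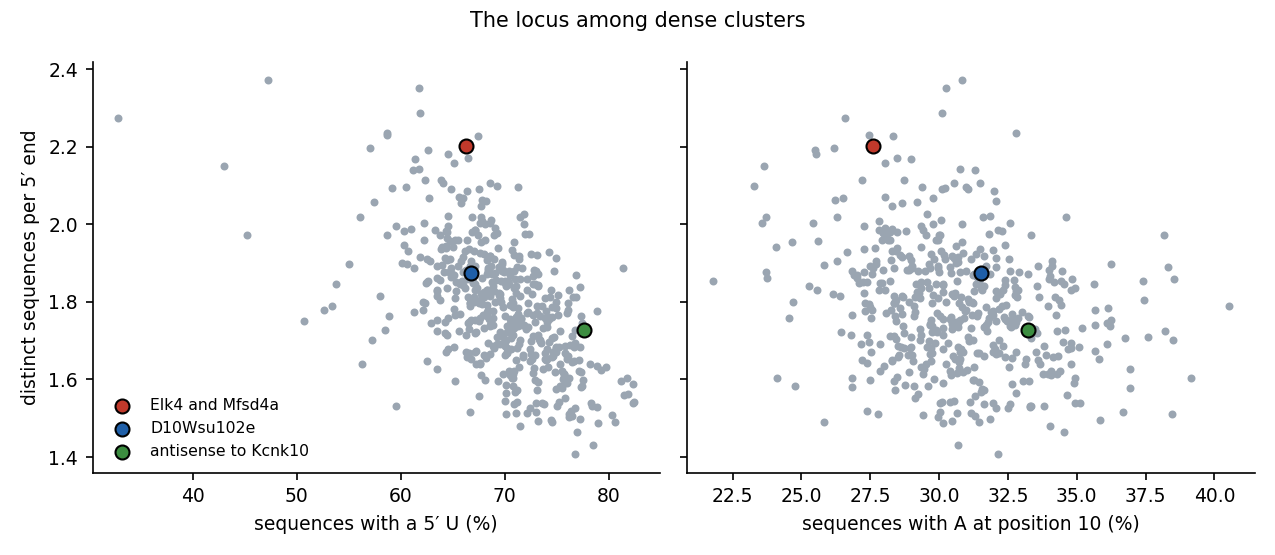
Distinct sequences per 5′ end against the share with a 5′ U (left) and with A at position 10 (right), in percent, for the dense clusters of the genome (grey points), with the locus and 2 other clusters in colour. The Elk4 and Mfsd4a cluster lies near the top, at 2.20 sequences per end, a measure that includes the number of sequences by which it was chosen.

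The 2 loci set beside it, a long transcript on 1 strand and a cluster antisense to a gene, differed from it in different measures. D10Wsu102e on chromosome 10 (82820001 to 82960000) has an annotated transcript of 123179 nt, and its cluster held 19234 sequences, 99.8% of them on plus. Its 5′ U share was 66.7% (66.1–67.4%), as in the Elk4 locus, whereas its A at position 10 stood at 31.5% (30.9–32.2%) and its sequences per end at 1.87. It had 4 pairs at 10 nt, too few for a ratio. The cluster on chromosome 12 (99620001 to 99680000) that is antisense to Kcnk10, a potassium channel gene, held 5900 sequences, of which 466 were antisense to Kcnk10 exons and 41.4% lay on plus. It had a 5′ U in 77.6% (76.5–78.7%), A at position 10 in 33.2% and 0 pairs at 10 nt. Opposite-strand ends rarely overlapped at any length in these 2 clusters, with a mean of 1.74 and 0.158 pairs at the other overlaps, against 28.9 in the Elk4 and Mfsd4a locus, so their 10 nt overlaps cannot be compared with it.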

How the data were processed

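The members and the gene lists were chosen with earlier results of these data known. Per the labels, MILI-bound RNAs of about 28 to 30 nt were cut from a gel and made into libraries with an Illumina small RNA kit. Positions are on mm9 according to the submitters' processing notes. Which aligner, mismatches and filters were used is not given in the sources used here. The deposited table, per its header line, gives a sequence, chromosome, start, end and strand, so its values are genome positions (another unit than counts), and it names 0 libraries.

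Members were matched whole and exactly, in both orientations, to 141767 GENCODE M21 transcripts. That annotation is built on GRCm38, so exons were placed in mm9 only through the listed positions of matching sequences, using exon lengths. All matches within an exon gave the same placement. The bases of the locus were read from overlapping listed sequences. Genes were named by rule: Elk4, Mfsd4a and any gene with 10 or more members. Positions named were the 5 fullest ends (ties by the lower position), the 3 fullest 1 kb bins and the 3 fullest 10 nt pairs. Border-crossing sequences and the split of the minus strand were chosen after values were seen. The matching, overlap and spacing steps were tested on simulated data, and the other steps were not. Intervals are 95%. Tables were made with pandas 2.3.3 and numpy 2.4.6, intervals with scipy 1.17.1 and plots with matplotlib 3.10.9, in Python 3.11.15. Some genes of the lists are not reported here by name.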

Additional observations from a re-analysis of the deposited data

How the results depend on the processing

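No paired analysis was possible because the table names no library. Leaving out a library was not possible for the same reason. Lengths of 24 to 31 nt, leaving out recurring ends, borders wider by 20 kb on each side, and other overlaps up to 30 nt were tried. Counting distinct 5′ ends gave a plus-strand share of 93.4%, 5′ U in 57.6%, antisense to Mfsd4a 27.9%, U after the 3′ end 28.8% and mean length 27.8 nt, since ends with many sequences then count once. With wider borders the share sense to Elk4 was 38.5% and that antisense to Mfsd4a 28.1%. These shares moved most, from 36.5% and 30.7%, with only the transcript with the longest coding sequence of each gene, where they were 25.8% and 23.4%. With 24 to 31 nt the mean length was 27.2 nt. Set against positions 11 to 20 in place of the covered bases, the ratio for 5′ U on plus was 2.15. The 10 nt ratio ran from 1.60 to 1.76. Bins of 500 nt and 2 kb placed the fullest bin within or around the same 1 kb. Depth per library is unknown.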

Other observations

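The genes next to the locus had fewer sense sequences than Elk4. The locus was chosen by its number of sequences, so this order follows from the choice and is a description only. Over all its exons Elk4 had 2514. The 2207 members sense to Elk4, and 343 such sequences in the 20 kb before the locus, were counted on another basis and do not add up to it. Nucks1, a nuclear casein kinase substrate, had 1149 sense sequences and Slc41a1, a magnesium transporter gene, 307. Slc45a3 had 64, Cdk18 28, Klhdc8a 23, Rab29 20, Lemd1 13 and Pm20d1 9. Antisense sequences numbered 0 or 1 in each of these 8 genes, against 1858 for Mfsd4a and 97 for Elk4.

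Among Elk4 and genes that act with it, 12 of 12 had 10 or more sense sequences, against 57.0% of all protein-coding genes. Elk4 itself had to pass, since its locus was chosen by its number of sequences. The other two ternary complex factors differed, with 214 sense sequences for Elk1 and 18 for Elk3, which had 21 antisense. Srf, the partner of these factors, had 186. The SRF coactivator genes Mrtfb and Mrtfa had 1898 and 132. Of target genes, Mcl1 had 464, Egr1 127, Egr2 65 and Fos 21. Per kb of the longest transcript these 12 genes had from 3.799 distinct ends (Elk3) to 267 (Elk4, whose ends also lie in exons outside that transcript), with a median of 30.8, against 6.10 over all protein-coding genes. The list holds no length or expression match, so nothing particular to it follows. These counts are of MILI-bound sequences and not of messenger RNA.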
